A study of Mus musculus with 46 samples.

Results

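The open chromatin of AgRP neurons 3 h after leptin was compared with that of fasted, vehicle-injected mice by ATAC-seq, in which a transposase cuts accessible DNA and the reads gather in peaks. The comparison used the 4 leptin and fasted libraries out of the 46 samples of the series, and a peak entered it when its mean over the 6 libraries of the 3 feeding states was above 1 CPM, the read count scaled to library size. By that rule 102237 of 123721 peaks were members. The lowest member had a mean of 1.00005 CPM and the highest peak left out 0.999988 CPM, so the limit did not fall in a gap.

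The IRF3 binding data set beside the peaks came from another model, mice with an activated IRF3 (IRF3-2D). All mice of the ATAC-seq and RNA libraries used here were male NuTRAP x AgRP-IRES-Cre animals on a C57BL/6J background, aged 6 to 11 weeks. The NuTRAP allele is silent until Cre removes a stop cassette, and Cre is made from the Agrp locus, so GFP-tagged ribosomal protein L10a is made in cells that express, or have expressed, Agrp. GFP-positive nuclei of the arcuate nucleus were sorted by flow cytometry from pooled mice. The fasted group (n = 2 libraries) was fasted for 18 to 20 h and injected with PBS, and the leptin group (n = 2) was fasted for the same time and injected with leptin at 5 mg/kg, both 3 h before euthanasia. A fed group (n = 2) on chow ad libitum was also injected 3 h before euthanasia, without leptin. It entered the fit to share the estimate of the spread, and its values are set beside the other groups. Each library pools several mice, so that the spread between 2 libraries is a spread between pools.

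AgRP neurons of the arcuate nucleus release the melanocortin antagonist AgRP and neuropeptide Y and drive feeding when energy stores fall. Leptin, the hormone released by fat, restrains them through its receptor LepR, which activates the kinase JAK2 and the transcription factor STAT3. Phosphorylated STAT3 dimers bind palindromic half-sites in DNA, and one of the direct targets is Socs3, which encodes a feedback inhibitor of the same receptor. Enhancers, the distal elements through which such factors act, become accessible to the transposase when they are in use.

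Leptin opened 1468 peaks (1.44% of those tested) and closed 313 (0.306%). The DNA of the 2 groups of peaks differed. The letters TTCNNNGAA, the half-site pair of STAT factors, stood in the central 300 bases of 605 of the 1468 opened peaks (41.2%) but in 20 of the 313 closed peaks (6.39%), against 12.4% of all tested peaks. The letters ACANNNTGT, the half-site pair of the glucocorticoid receptor and its relatives (GRE), stood in 97 of the 313 closed peaks (31.0%), in 12.4% of the opened peaks and in 13.2% of all tested peaks. The share in closed peaks was 0% of the 3 closed peaks without leptin replicate 1, 25% of the 8 without fasted replicate 1, and 30.8% to 33.4% without fasted replicate 2 or either fed library. Without leptin replicate 2 no peak was closed. Both patterns read the same on the 2 strands. The sequences below are from the GRCm38 (mm10) genome of RefSeq, plus strand, 121 bases centred on the pair nearest the peak midpoint, with the pair in capitals. The first 6 are from opened peaks that hold the STAT pair. Other opened peaks named below do not hold it, among them those of Lcorl, Csl, Gpr151, Slc10a6, Steap4 and Drd1.

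Socs3, chr11:117962567-117962687: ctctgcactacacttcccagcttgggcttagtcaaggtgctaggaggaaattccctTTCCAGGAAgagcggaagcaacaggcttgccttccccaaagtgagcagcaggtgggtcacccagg
Osmr, chr15:6912699-6912819: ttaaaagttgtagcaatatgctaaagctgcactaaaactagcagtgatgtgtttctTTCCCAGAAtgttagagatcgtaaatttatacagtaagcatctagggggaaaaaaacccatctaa
Ghsr, chr3:27435129-27435249: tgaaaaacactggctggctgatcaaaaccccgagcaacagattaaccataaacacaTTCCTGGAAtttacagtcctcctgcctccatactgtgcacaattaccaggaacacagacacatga
Abca1, chr4:53169348-53169468: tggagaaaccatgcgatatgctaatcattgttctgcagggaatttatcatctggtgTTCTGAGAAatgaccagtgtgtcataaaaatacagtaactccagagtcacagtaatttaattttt
Rdh10, chr1:16179854-16179974: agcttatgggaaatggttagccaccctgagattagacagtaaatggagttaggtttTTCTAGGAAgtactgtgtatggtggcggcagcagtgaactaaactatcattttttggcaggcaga
Sv2b, chr7:75292028-75292148: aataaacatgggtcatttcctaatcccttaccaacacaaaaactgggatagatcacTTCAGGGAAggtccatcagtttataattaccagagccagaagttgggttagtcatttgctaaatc

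The next 3 are from closed peaks that hold the GRE pair. Other closed peaks named below do not hold it, among them those of Rasl11b, Rergl and Cdkal1.

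Acvr1c, chr2:58390515-58390635: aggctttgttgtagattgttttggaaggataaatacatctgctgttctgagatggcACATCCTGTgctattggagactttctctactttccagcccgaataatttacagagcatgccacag
Ssu2, chr6:112345737-112345857: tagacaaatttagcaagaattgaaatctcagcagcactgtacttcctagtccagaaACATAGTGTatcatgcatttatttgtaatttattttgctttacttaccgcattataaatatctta
Cacna1e, chr1:154517354-154517474: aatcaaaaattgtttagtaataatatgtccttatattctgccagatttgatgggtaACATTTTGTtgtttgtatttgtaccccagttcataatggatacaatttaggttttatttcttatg

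Names are those of the gene with the nearest protein-coding start site in GENCODE M21, and a name does not mean that the peak acts on that gene. The Socs3 and Ghsr pairs also match TTCCNGGAA, the form that STAT3 prefers. The Rdh10 stretch begins before its narrow peak. The Acvr1c peak held 3 GRE pairs in its central 300 bases.

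The total count in peaks was between 14455862 and 17190963 in the 4 leptin and fasted libraries, and 8263234 and 14324992 in the fed ones. Over the tested peaks, Pearson correlations of log2 CPM were 0.942 between the fasted libraries, 0.951 between the leptin libraries and 0.896 to 0.928 across the 2 groups. The accessibility of the peak over the Agrp promoter, whose midpoint lies 0.4 kb downstream of the start, was 3.39 log2 units higher in AgRP-positive than in AgRP-negative nuclei in the separate libraries of the series that compared them, and that of the Npy promoter 2.77 units higher.

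Peaks were called in edgeR's quasi-likelihood test at a Benjamini-Hochberg adjusted p (FDR) under 0.05 and a log2 fold change of at least 0.5 in size, with n = 2 libraries against 2. At an unadjusted p under 0.05, 6974 peaks were higher and 5036 lower in the leptin libraries. Among the calls 82.4% were opened, and the median log2 fold change over all tested peaks was -0.02. The median of the opened peaks was 1.86, with a lowest value of 0.77 and a highest of 5.45, and that of the closed peaks -1.75, from -0.56 to -4.02. The number of calls rested on single libraries. Without leptin replicate 1 there were 41 opened and 3 closed peaks, and without leptin replicate 2 there were 78 opened and 0 closed, the latter beside 2117 peaks lower at an unadjusted p under 0.05. Without fasted replicate 1 there were 170 and 8, without fasted replicate 2 725 and 544, without fed replicate 1 2514 and 924, and without fed replicate 2 2493 and 931. DESeq2 called 1434 and 345. In none of these fits did a called peak that was still tested change its direction. Both leptin libraries were above both fasted ones at all 1468 opened peaks, and below them at all 313 closed peaks. Leaving out a library could therefore hardly turn a sign.

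**Figure D1:**
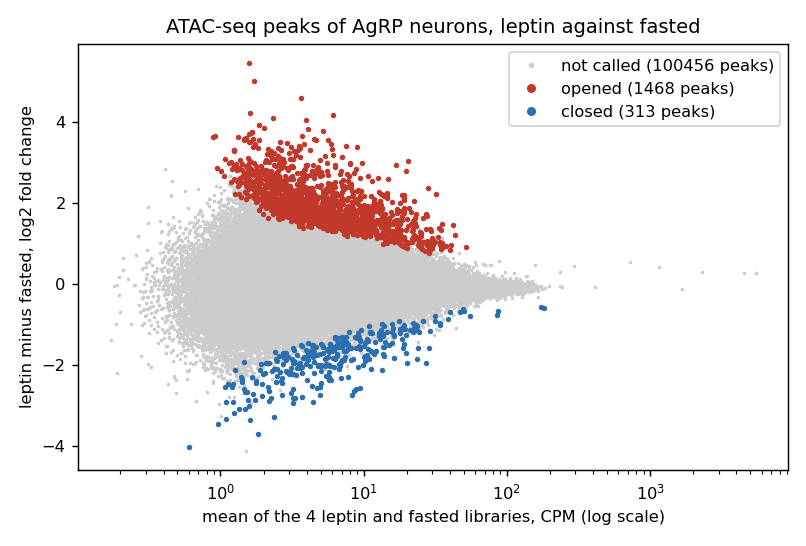
Leptin minus fasted log2 fold change of each tested peak against its mean CPM in the 4 leptin and fasted libraries, on a log axis. The 1468 opened peaks (red) and 313 closed peaks (blue) lie mostly below 100 CPM, and the peaks that were not called are grey.

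The levels of the called peaks are described here without a test, since the same fasted and leptin values chose them. The median of the opened peaks was 2.08 CPM in the fasted libraries and 7.97 CPM in the leptin libraries, and 342 of the 1468 (23.3%) were under 1 CPM in the fasted mean, against 5.78% of all tested peaks. Closed peaks had a median of 9.17 CPM fasted and 2.65 CPM with leptin. Over all tested peaks the medians were 3.84 and 3.97 CPM. In the fed libraries the opened peaks had a median of 2.24 CPM and the closed peaks one of 7.35 CPM, so both sets lay nearer to their fasted than to their leptin level. Both leptin libraries were above both fed libraries at 1318 opened peaks (89.8%; 36.3% of all tested peaks), and both were below them at 242 closed peaks (77.3%; 34.8% of all). The calls and the limit on mean CPM set part of these patterns, since a peak low in the fasted libraries passed mainly through the leptin ones.

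Of the 3 opened peaks with the smallest p, 2 lay over 200 kb from the nearest start site. The peak on chromosome 5 at 46138917-46139807, whose nearest start site is that of Lcorl at 281.7 kb, had 3.89 and 4.85 CPM in the fasted libraries and 36 and 36.6 CPM in the leptin libraries. The leptin libraries were several times above the fasted ones and the groups did not overlap (log2 fold change 3.05 ± 0.25 SE, FDR = 3.33e-05). Its fed libraries, at 14.9 and 13.4 CPM, lay between. A peak in an intron 16.2 kb downstream of a start of Sv2b, which encodes a synaptic vesicle protein, had 3.82 and 3.92 CPM fasted against 32.4 and 27.1 CPM with leptin. The fed values of 3.97 and 2.67 CPM were near the fasted ones, and the groups did not overlap (2.94 ± 0.30, FDR = 0.000254). The third, on chromosome 10, was 200.9 kb from the start of Csl and rose from 0.83 and 0.436 CPM to 11.7 and 11.3 CPM (4.17 ± 0.41, FDR = 0.000248). It was at 1.37 and 1.51 CPM in the fed libraries.

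The 10 opened peaks with the largest fold changes, all without overlap between the groups, were nearly shut before leptin. Their fasted libraries ranged from 0.0622 CPM at the Clca3a2 peak to 0.83 CPM at the Csl peak, so the fitted folds rest on a few reads in the fasted state. Among them, an intergenic peak 77.7 kb upstream of Foxa2, a forkhead factor, had 0.319 and 0.249 CPM fasted, and 6.39 and 7.59 CPM with leptin (4.58 ± 0.48, FDR = 0.00028). An intronic peak of Aldh1a1, which makes retinoic acid, had 0.319 and 0.560 CPM fasted and 8.12 and 6.86 CPM with leptin (4.06 ± 0.48, FDR = 0.000537). The peak 74.2 kb from Rdh10, which encodes the retinol dehydrogenase upstream of that step, had 0.319 and 0.187 CPM fasted and 4.44 and 3.07 CPM with leptin (3.85 ± 0.59, FDR = 0.00266). Rdh10 RNA rose with leptin in AgRP neurons (log2 fold change 2.51 ± 0.14, edgeR FDR = 9.16e-06), and Aldh1a1 RNA did not pass the test. The other 6 peaks had log2 fold changes of 3.82 to 5.45 and lay nearest to Clca3a2, Ldoc1, Jam3, 4930583I09Rik, Qrsl1 and Lama1, the last encoding a laminin chain.

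Closed peaks had lost most of their signal. The one with the smallest p, in an intron 61.5 kb from a start of Rasl11b, a small GTPase gene, fell from 16.1 and 13.6 CPM to 2.36 and 2.40 CPM (-2.64 ± 0.34, FDR = 0.00096). The groups did not overlap, and the fed libraries, at 8.94 and 5.41 CPM, lay between. A peak 418.1 kb from Rergl fell from 19.1 and 13.1 CPM to 3.47 and 2.01 CPM (-2.56 ± 0.36, FDR = 0.00164), and one in an intron 132.1 kb from a start of Cdkal1 from 6.31 and 5.10 CPM to 0.763 and 0.725 CPM (-2.93 ± 0.43, FDR = 0.00201). The Cdkal1 peak was also low in the fed libraries, at 0.869 and 1.23 CPM. The 10 closed peaks with the largest changes ran from -3.01 (Barhl1) to -4.02 (B230118H07Rik) and included intronic peaks of Cacna1e, which encodes a voltage-gated calcium channel, and of Ikzf2, an Ikaros family factor. Their leptin libraries were between 0.0558 and 0.555 CPM.

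Near genes that leptin is known to induce, the called peaks were all opened. Of 182 tested peaks assigned within 200 kb to 27 genes of a list of leptin-responsive and acute-phase-like genes, 12 (6.59%) were opened and 0 were closed, and the median log2 fold change was 0.19, against 1.44% and 0.306% and a median of -0.02 over all peaks. The list holds genes that earlier work on these samples had shown to respond. The 12 peaks were near Abca1, Bcl3, Drd1, Gpr151, Osmr, Serpina3i, Serpina3n, Slc10a6, Socs3 and Steap4. At Socs3 the promoter peak was strong and did not pass the test, at 57 and 76.5 CPM fasted, and 67.5 and 58.6 CPM with leptin (-0.08 ± 0.16, FDR = 0.918). Its groups overlapped. A small intergenic peak 6.6 kb downstream of the start, past the end of the gene, had 2.68 and 2.80 CPM fasted and 7.70 and 7.42 CPM with leptin. There the groups did not overlap (1.46 ± 0.34, FDR = 0.0322), and the fed libraries had 2.36 and 3.46 CPM. Socs3 RNA rose by a log2 fold change of 3.73 ± 0.25 (FDR = 3.66e-05).

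Osmr encodes a subunit of the oncostatin M receptor, which also signals through STAT3. Its opened peak, 37.8 kb upstream, had 1.59 and 2.74 CPM fasted and 8.26 and 9.32 CPM with leptin (2.02 ± 0.39, FDR = 0.0122). The groups did not overlap. Osmr RNA was higher by 0.96 ± 0.24, which did not pass (edgeR FDR = 0.0791) and did with the replicate number as a block (0.0119). The Socs3 and Osmr peaks were the only 2 opened peaks (1.19%) among 168 assigned to 25 genes of leptin receptor and JAK-STAT signaling, with 0 closed. These shares were near the 1.44% opened and 0.306% closed of all tested peaks, and the median was -0.02. The Lepr, Stat3 and Irf3 promoter peaks had log2 fold changes of -0.25 ± 0.26, -0.21 ± 0.13 and -0.31 ± 0.23 with FDRs of 0.820, 0.625 and 0.696. Without single libraries the sign of the Lepr and Socs3 promoter values turned.

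Promoters themselves opened at Gpr151 and Slc10a6. Gpr151, an orphan G protein-coupled receptor gene, had a promoter peak of 5.99 and 5.85 CPM fasted and 22.7 and 17.1 CPM with leptin (1.74 ± 0.29, FDR = 0.00464). The leptin libraries were above the fasted ones without overlap, and the fed libraries were lower still, at 2.85 and 2.60 CPM. At Slc10a6, which encodes a transporter of sulfated steroids, the promoter peak rose from 5.86 and 3.30 CPM to 17.1 and 15.1 CPM (1.81 ± 0.39, FDR = 0.0194), with 3.23 and 1.01 CPM fed. Their RNA rose by 3.99 ± 0.26 and 3.65 ± 0.36 log2 units (edgeR FDR = 2.82e-05 and 0.000461).

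Steap4, a metalloreductase gene, had the largest RNA change of the listed genes with an opened peak (5.75 ± 0.54, FDR = 0.000358). Its opened peak, 4.8 kb upstream of the nearest start and annotated as intronic, was small. The peak had 0.382 and 0.498 CPM fasted and 3.33 and 2.57 CPM with leptin (2.71 ± 0.55, FDR = 0.0143). Bcl3, a co-regulator of NF-kappaB and a target of STAT3, had 2 opened peaks, of which the one 9.3 kb upstream rose from 1.15 and 0.747 CPM to 6.66 and 6.08 CPM (2.74 ± 0.40, FDR = 0.00206) and the one in an intron from 6.25 and 6.10 CPM to 26.4 and 24.2 CPM (2.03 ± 0.29, FDR = 0.0017). Neither pair of groups overlapped, and neither Bcl3 peak held the STAT pair in its central 300 bases. Abca1, the cholesterol exporter, also had 2, and the one 9.6 kb upstream rose from 1.47 and 3.8 CPM to 7.77 and 10.3 CPM (1.78 ± 0.40, FDR = 0.0242). Abca1 RNA was higher by 0.94 ± 0.28 (edgeR FDR = 0.167, and 0.000417 with the replicate number as a block). Peaks assigned to Serpina3i and Serpina3n, acute-phase protease inhibitors, had log2 fold changes of 2.43 ± 0.49 and 1.98 ± 0.46 (FDR = 0.0147 and 0.0312). These genes have near-identical neighbours, among which reads may be shared out uncertainly. Drd1, the dopamine D1 receptor gene, had an opened peak 126.1 kb away, annotated as intronic, at 3.95 and 3.17 CPM fasted and 10.5 and 9.04 CPM with leptin (1.45 ± 0.34, FDR = 0.0329), and its RNA rose by 2.60 ± 0.16 (FDR = 2.03e-05).

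**Figure D2:**
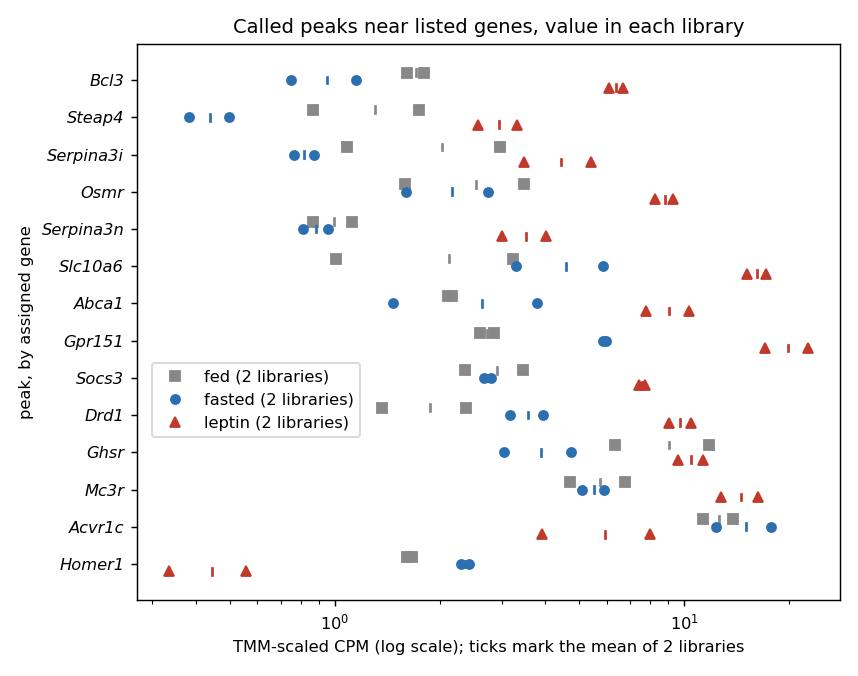
TMM-scaled CPM, on a log axis, of the called peak with the largest change near each listed gene, in every fed (grey squares), fasted (blue circles) and leptin (red triangles) library, with a tick at the mean of 2 libraries. At 12 of the 14 peaks the leptin libraries lie above the fasted ones, and at Acvr1c and Homer1 below them. Fed libraries reach the leptin level at Ghsr.

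Among AgRP neuron markers, 2 of 186 peaks were opened (1.08%) and 1 was closed (0.538%), near the 1.44% and 0.306% of all tested peaks. The opened peak of the ghrelin receptor gene Ghsr lay 64 kb downstream of its start and was annotated as intronic, a label taken from any gene. It was at 3.06 and 4.73 CPM fasted and 11.3 and 9.60 CPM with leptin (1.42 ± 0.35, FDR = 0.0463). Its fed libraries, at 11.8 and 6.34 CPM, overlapped with the leptin ones. Ghsr RNA did not pass (-0.30 ± 0.16, FDR = 0.710). Mc3r, a melanocortin receptor gene, had a peak 44.7 kb away that rose from 5.10 and 5.91 CPM to 16.3 and 12.8 CPM (1.40 ± 0.31, FDR = 0.0235), with RNA higher by 0.76 ± 0.15 (FDR = 0.0211). Acvr1c, the receptor gene for activin-like ligands, had the closed peak, 32.7 kb upstream of the nearest start and annotated as intronic. The peak fell from 17.8 and 12.3 CPM to 7.98 and 3.90 CPM (-1.35 ± 0.34, FDR = 0.0466). Acvr1c RNA was lower by a log2 fold change of -0.49 ± 0.19, which did not pass (FDR = 0.376). With the replicate number as a block it did (-0.50, FDR = 0.0159). The peaks over the promoters of Agrp (-0.11 ± 0.12, FDR = 0.841) and Npy (-0.23 ± 0.18, FDR = 0.728) did not pass, and their sign turned without single libraries.

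Of 209 peaks of 22 feeding-related receptor genes, 7 were opened (3.35%, against 1.44% of all tested peaks) and 2 closed (0.957%, against 0.306%), with a median of 0.03. The 7 include the Drd1, Ghsr and Mc3r peaks that other lists also hold. The largest was 56.2 kb upstream of Htr1b, a serotonin receptor gene, at 1.47 and 0.934 CPM fasted and 11.9 and 9.99 CPM with leptin, and at 0.124 and 0.649 CPM fed (3.18 ± 0.41, FDR = 0.00103). The leptin libraries stood above all the others. Glp1r and Npy2r, receptor genes for the satiety peptides GLP-1 and PYY, had 1 and 2 opened peaks with log2 fold changes of 1.27 (Glp1r), and 1.20 and 1.84 (Npy2r). The closed ones were in introns of Adra1b and Drd2 (-1.87 and -1.89), and at Drd2, the dopamine D2 receptor gene, the fed libraries, at 11.0 and 10.9 CPM, were above both fasted ones at 5.42 and 2.37 CPM. In RNA, Htr1b was not tested, and Glp1r, Npy2r, Adra1b and Drd2 were not called, with log2 fold changes of 0.15, 0.19, -0.27 and 0.15.

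Of 152 peaks of 12 glucocorticoid receptors and targets, 3 were opened (1.97%, against 1.44% of all tested peaks) and 0 closed, with a median of -0.14. They were intronic peaks of Nr3c1 (2.33 ± 0.42, FDR = 0.00733) and Nr3c2 (2.33 ± 0.40, FDR = 0.00574), which encode the glucocorticoid and mineralocorticoid receptors, and of Sgk1 (2.71 ± 0.42, FDR = 0.00288), a kinase that glucocorticoids induce. Nr3c2 RNA rose by 1.07 ± 0.10 (FDR = 0.00044), while Nr3c1 RNA (-0.35 ± 0.10) and Sgk1 RNA (-0.10 ± 0.12) did not pass, with FDRs of 0.132 and 1.00. Of 404 peaks near 26 firing-related ion channel genes, 7 were opened (1.73%) and 1 closed (0.248%), near the shares of all tested peaks, with a median of -0.03, near Cacna1a, Grin2a, Kcnj3 and Kcnq3. Grin2a, an NMDA receptor subunit gene, held both kinds, with 2 opened peaks (1.75 and 2.68) and 1 closed peak (-1.51).

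Immediate early genes, which neurons switch on when they fire, had 0 opened and 1 closed (0.521%) of 192 peaks and a median of -0.12. The closed one was in an intron of Homer1 and fell from 2.42 and 2.30 CPM to 0.555 and 0.335 CPM (-2.41 ± 0.54, FDR = 0.0253), and the Fos promoter peak did not pass (-0.08 ± 0.18, FDR = 0.938). For the 53 peaks of the IRF3 activation pathway the counts were 0 and 0 with a median of -0.05, for the 33 peaks of canonical IRF3 targets 0 and 0 with a median of 0.02, and for the 103 peaks of endoplasmic reticulum stress genes 0 and 0 with a median of -0.05. Each is a count from edgeR's test, to be read against the 1.44% opened and 0.306% closed of all tested peaks.

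Markers of other cells that could be among the sorted nuclei were examined in 7 lists, of which 4 had 1 opened peak each. Astrocyte markers had 0 opened and 0 closed of 61 peaks (median 0.20), oligodendrocyte lineage markers 0 and 0 of 69 (-0.07) and endothelial markers 0 and 0 of 30 (-0.09). There was 1 opened peak and no closed one each for POMC neuron markers (Isl1, 75 peaks, median -0.02), glutamatergic markers (Slc17a6, 18 peaks, 0.12), microglia markers (P2ry12, 20 peaks, -0.19) and tanycyte and ependymal markers (Col23a1, 52 peaks, -0.05). These are 1.33%, 5.56%, 5.0% and 1.92% of the lists' peaks, against 1.44% of all tested peaks, and each rests on 1 peak. Summed glutamatergic marker peaks were at 62.6 and 64.4 CPM fasted and at 76.9 and 65.0 CPM with leptin, so that both leptin libraries were above both fasted ones. The summed level of the astrocyte marker peaks was 319 and 318 CPM fasted, and 337 and 333 CPM with leptin. Summed oligodendrocyte marker peaks were at 662 and 592 CPM fasted and at 602 and 554 CPM with leptin, and microglia marker peaks at 76.3 and 72.8 CPM fasted and at 76.4 and 63.7 CPM with leptin. In sorted pools, fewer cells of a type and less accessible DNA per cell cannot be told apart, and the part of such cells in the results was not tested.

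Most of the called peaks were distal. Of the opened peaks, 2.38% had their midpoint in a promoter (up to 1000 bases upstream of a start), 46.6% in an intron, 47.9% between genes and 3.13% in an exon. For the closed peaks the shares were 4.15%, 46.6%, 45.7% and 3.51%, and for all tested peaks 12.0%, 47.5%, 31.3% and 9.16%. The median distance to the nearest protein-coding start was 51.7 kb for opened and 63.1 kb for closed peaks, against 27.2 kb. Median GC content was 43.8% and 41.1%, against 47.7%. Of the opened peaks 240 (16.3%) had another opened peak within 50 kb, and of the closed peaks 16 (5.11%) had another closed one. The sets differ in size, and the share for as many other tested peaks was not computed. Of the 49 tested peaks assigned to Sema6d, a semaphorin gene, 9 were opened, against 1.44% of all tested peaks. Only Sema6d had more than 4.

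The STAT half-site pair followed the size of the change over all tested peaks, called or not. It was in 8.84% of the 39098 peaks with a log2 fold change between -0.5 and 0, in 20.2% of those between 0.5 and 1, in 38.9% of those between 1.5 and 2 and in 46.3% of the 715 peaks above 2. Below -2 the share was 9.0% of 211 peaks. The GRE pair ran the other way, from 36.5% of the peaks below -2 through 20.6% between -1 and -0.5 to 11.0% between 0 and 0.5, and was level above that. The AP-1 motif TGANTCA, bound by FOS and JUN dimers, rose from 7.58% below -2 to 45.2% between 0.5 and 1 and was at 32.4% above 2. It stood in 36.9% of the opened, 12.1% of the closed and 32.2% of all tested peaks.

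**Figure D3:**
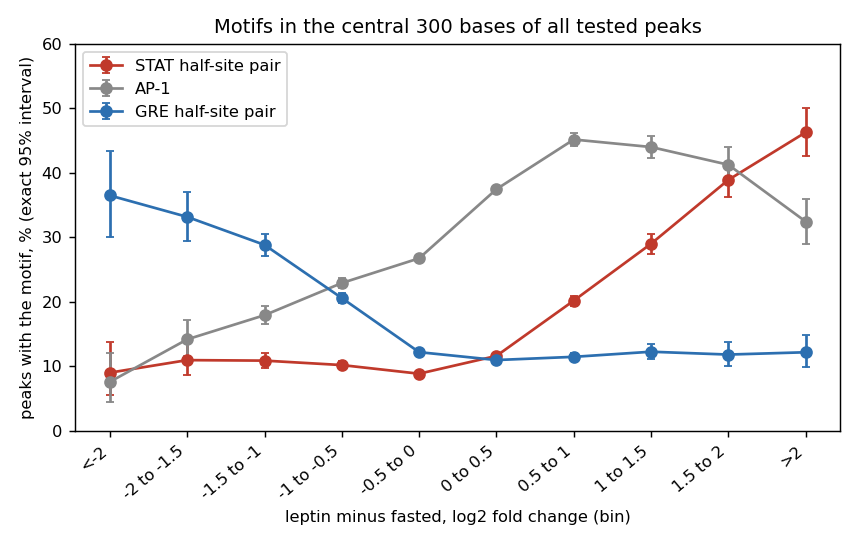
Share of tested peaks that hold the STAT half-site pair (red), the AP-1 motif (grey) and the GRE half-site pair (blue) in their central 300 bases, in bins of the leptin minus fasted log2 fold change, with exact 95% binomial intervals over peaks. The STAT share climbs to 46.3% in the highest bin and the GRE share to 36.5% in the lowest.

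Read from the sequence side, 12650 tested peaks held the STAT pair, and 605 of them (4.78%) were opened and 20 (0.158%) closed, against 0.963% and 0.327% of the peaks without it. Of the 2467 peaks with the STAT3-preferred form TTCCNGGAA, 221 (8.96%) were opened and 2 closed, and their median log2 fold change was 0.49. The share that opened grew with the number of pairs, from 0.964% with 0 pairs and 4.38% with 1 to 8.01% with 2 and 21.5% of the 93 peaks with 3 or more. Of the peaks with 0, 1, 2, and 3 or more GRE pairs, 0.243%, 0.676%, 1.05% and 2.27% were closed, the last being 3 of 132. The median CPM of the peaks was 3.98 with 0 STAT pairs and 3.08 with 3 or more.

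The shares depended on the spacing of the half-sites. With TTC and GAA 3 bases apart the share was 41.2% in opened and 12.4% in all tested peaks. With 0, 1 and 2 bases between them it was 0.749% against 1.12%, 10.8% against 8.53% and 15.4% against 8.41%. With 4, 5 and 6 bases it was 8.86% against 8.02%, 8.86% against 8.48% and 12.0% against 8.76%. For ACA and TGT the closed peaks had 31.0% against 13.2% at 3 bases, and were above all tested peaks at every other spacing too. The closed share was 10.9% against 7.29% at 0 bases, 16.9% against 11.6% at 1, 11.8% against 9.99% at 2, 13.1% against 10.4% at 4, 12.8% against 9.82% at 5 and 13.4% against 10.5% at 6. In opened peaks the STAT pairs lay somewhat nearer the midpoint, with 42.1% of them within 50 bases of it against 37.4% in all tested peaks.

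**Figure D4:**
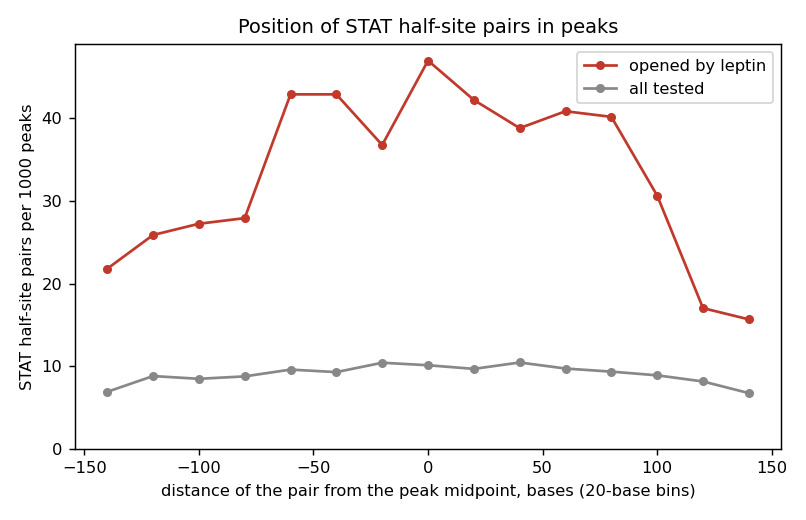
STAT half-site pairs per 1000 peaks in 20-base bins of distance from the peak midpoint, for opened peaks (red) and all tested peaks (grey). Opened peaks hold more pairs than all tested peaks in every bin, with 47.0 against 10.1 per 1000 at the midpoint.

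GC content, which was lower in both called sets, moved with some of these shares. Within the quartile of tested peaks lowest in GC, the STAT pair was in 41.3% of the opened, 7.07% of the closed and 18.3% of all peaks, and in the highest quartile in 37.5%, 0% and 5.47%. The GRE pair was in 38.9% of closed against 19.3% of all peaks in the lowest quartile and in 24.1% against 15.8% in the next, but in 13.2% against 12.2% in the third and in 1 of 19 closed peaks in the highest. For AP-1 the opened peaks were below all peaks in the lowest quartile (34.7% against 42.6%) and above them in the highest (42.9% against 13.4%). The ISRE, the element of interferon regulatory factors, was in 4.84% of opened, 5.75% of closed and 4.12% of all tested peaks.

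Binding data were compared next. IRF3 peaks came from CUT&RUN, which cuts DNA next to an antibody-bound factor, in AgRP neurons of mice with an activated IRF3 (IRF3-2D), in 1 library. At least 1 base of such a peak was shared by 46 of 1468 opened peaks (3.13%), 15 of 313 closed peaks (4.79%) and 9.88% of all tested peaks. For CTCF in AgRP nuclei, also 1 library, the shares were 8.31%, 23.3% and 21%. Overlap grew with peak strength. In the quartile of peaks with the highest CPM, IRF3 peaks overlapped 6.27% of opened, 13.5% of closed and 22.5% of all, and CTCF peaks 24.1%, 50.6% and 37.7%. In that quartile 3.30% of opened, 6.74% of closed and 30.6% of all peaks were in promoters, and overlap apart from promoters was not computed.

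Most called peaks with a value were more accessible in AgRP neurons than in their neighbours. AgRP-positive and AgRP-negative arcuate nuclei, sorted from the same pools (n = 2 libraries each), had been profiled over their own peaks, of which 24.1% were called higher and 15.3% lower in the AgRP-positive nuclei. An overlapping peak was tested there for 704 opened and 223 closed peaks. It was higher in AgRP-positive nuclei for 539 of the 704 (76.6%) and 162 of the 223 (72.6%), against 28.6% of the 55447 tested peaks with a value, and lower for 11 and 2. The median log2 difference was 1.92 for opened, 1.59 for closed and 0.15 for all. In the quartile of peaks lowest in CPM the share was 65.0% of 20 opened peaks against 17.3% of all, and in the highest 85.3% of 266 against 33.8%. Opened peaks with no overlapping peak there have no value. Promoters were 2.38% of opened and 4.15% of closed peaks but 12.0% of all tested peaks, and the shares apart from promoters were not computed.

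RNA bound to tagged ribosomes had been sequenced in fasted (n = 4) and leptin-treated (n = 4) mice of the same line. Leptin induced 160 of 13401 tested genes (1.19%) and repressed 81 (0.604%). With the replicate number as a block the counts were 239 and 143. An opened peak lay within 200 kb of a start site of 80 of the 156 induced genes with a GENCODE start (51.3%), against 12 of 78 repressed genes (15.4%) and 20.1% of the 12008 genes called in neither direction. A closed peak lay near 7 induced genes (4.49%), 11 repressed genes (14.1%) and 4.22% of the others. The median number of tested peaks in the window was 25, 28 and 26. With the blocked RNA calls the opened share was 50.2% of induced genes and the closed share 15.2% of repressed genes. Genes close together share peaks.

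**Figure D5:**
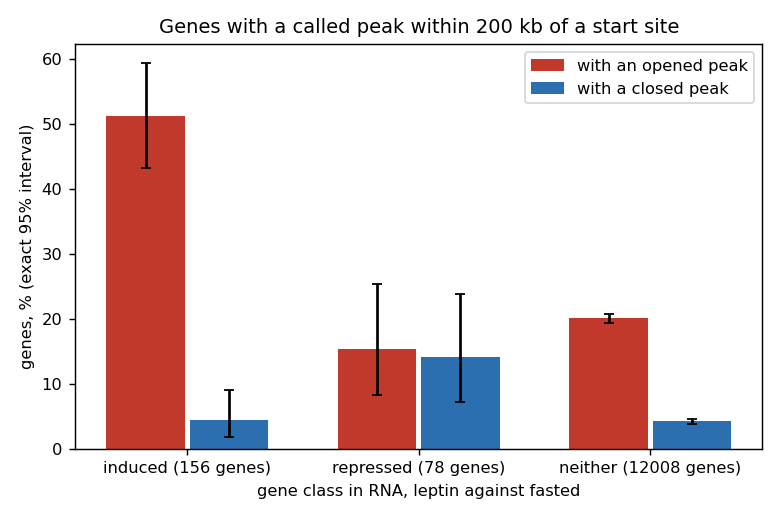
Share of genes with an opened peak (red) or a closed peak (blue) within 200 kb of a start site, for genes induced, repressed or not called by leptin in RNA, with exact 95% binomial intervals over genes. Opened peaks lie near 51.3% of induced genes, and closed peaks near 14.1% of repressed genes.

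The share of genes induced was higher with more opened peaks in the window, up to 4. It was 0.780% of 9740 genes with 0, 2.64% of 2006 with 1, 5.24% of 401 with 2 and 6.59% of 91 with 3 or 4, while 0 of 4 genes with 5 or more were induced. Of genes with 0 and 1 closed peaks, 0.572% and 1.98% were repressed. By nearest start site, the opened peaks within 200 kb belonged to 1021 genes, of which 766 were tested in RNA, 47 induced and 5 repressed (70 and 6 with the replicate number as a block). The 237 genes of closed peaks had 174 tested, 2 induced and 6 repressed (3 and 13 with the block). Over all genes tested in RNA, 1.19% were induced and 0.604% repressed. Most of the tested genes nearest to a called peak had no called change in RNA. For Sema6d, with 9 opened peaks, the RNA log2 fold change was 0.49 ± 0.21 (FDR = 0.494, and 0.000542 with the replicate number as a block).

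Promoter peaks of genes in the RNA table were seldom opened, with 7 of 11346 (0.0617%). Of 140 induced genes with a promoter peak, 3 had it opened (2.14%), which were Cpne8, Gpr151 and Slc10a6, and the median log2 fold change was 0.09, against -0.05 over 11346 genes. The promoter peak was higher in the leptin mean for 67.1% of the induced, 18.7% of the repressed and 37.3% of all genes. For the 75 repressed genes with a promoter peak the median was -0.18.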

How the data were processed

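ATAC-seq was performed on sorted AgRP nuclei of fed, fasted and leptin-treated mice. The authors aligned reads to mm10 with Bowtie2, called peaks with MACS2, merged them with bedtools and deposited raw read counts per peak. The deposited log2 CPM table served only as a check of libraries and peaks, of which all 90196 were in the count table and 90128 were tested here. The authors deposited ribosome-bound RNA read counts per gene, the summed signal of IRF3 CUT&RUN peaks called with SEACR (1 library, IRF3-2D mice) and the MACS2 fold enrichment (a ratio) of CTCF CUT&RUN peaks (1 library). Cerebellar CUT&RUN peaks and other RNA tables were not used here.

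Peaks with a mean above 1 CPM in 6 libraries were fitted by state in edgeR (4.0.16) under R (4.3.3), with TMM scaling and the quasi-likelihood test, and were called at FDR under 0.05 and a log2 fold change of at least 0.5 in size. Read counts of RNA (4 fasted, 4 leptin and 3 fed libraries) and of sorted AgRP-positive and AgRP-negative nuclei were fitted likewise. Promoters, exons and start sites were from GENCODE M21, a peak was assigned to the nearest protein-coding start within 200 kb, and motifs were searched on both strands in the central 300 bases. Counts by spacing and number of pairs cover the 102204 tested peaks with a sequence. Shares of peaks cover counting error only, and neighbouring peaks are not independent. Peaks named are, in each direction, the 10 with the largest change without overlap of the libraries and the 3 with the smallest p, the called peak with the largest change at each gene of the leptin signaling, leptin-responsive, AgRP marker and immediate early lists, and 7 promoter peaks, each the strongest peak that overlaps 1000 bases upstream to 100 downstream of a start, wherever its midpoint lies. Other called peaks of listed genes were named after their values were seen. The members and lists were chosen with earlier results of these data known.

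Same-numbered RNA libraries deviated together (correlations of 0.536 to 0.814), so that blocked values are given where they change a call. Alternatives covered scaling, filters, tests (DESeq2 1.42.0), windows, overlaps, blocks and leaving out each library. Scripts were tested on simulated data and run in Python (3.11.15) with pandas (2.3.3), scipy (1.17.1), pysam (0.24.0) and matplotlib (3.10.9). The number of replicates, 2 per group, limits the precision.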

Additional observations from a re-analysis of the deposited data

Results flagged for a closer look

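The RNA values of the genes named beside a peak were examined for libraries that stood apart from the other 3 of their group, which chance gives in some groups. It did so in 5 of 44 groups. In the fasted group, 1 library was above the others for Abca1 (88.9 CPM against 38.9 to 43.9), for Homer1 (59.7 CPM) and for Serpina3n (693.5 CPM), and 1 was below them for Ghsr (234.1 CPM). In the leptin group, 1 library was above the others for Nr3c2 (64.0 CPM). Groups of 2 libraries, as in ATAC-seq, could not be examined in this way.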

How the results depend on the processing

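No called peak changed direction under any alternative, which the lack of overlap between the libraries at called peaks largely set in advance. The number of calls moved, and the cause was not tested. Opened and closed peaks numbered 2704 and 1055 with the 4 leptin and fasted libraries only, 620 and 71 with glmTreat, which tests against the fold threshold, 2353 and 1016 with a replicate block, and 2318 and 1232 with the replicate block and GC-bin centring. Closed peaks numbered 515 with a filter of 10 counts in total and 159 with a mean above 2 CPM. Without single libraries opened peaks ranged from 41 to 2514 and closed peaks from 0 to 931. Opened peaks were 82.4% of all calls, 71.9% with 4 libraries, 69.8% with the block and 65.3% with the block and GC-bin centring. After the mean of each state was removed, same-numbered ATAC-seq libraries correlated at 0.165 (fasted and leptin), 0.155 and -0.00228 (with fed). The main fit did not take the numbers as pairing them. In every state replicate 1 had a higher share of mitochondrial counts than replicate 2 (fasted 1.14% and 0.683%, leptin 1.49% and 0.731%, fed 1.65% and 0.730%). Whether libraries with the same number were prepared together is not in the labels and was not tested. Induced genes numbered 103 with scaling to library size and 108 to 181 without single libraries, and repressed genes 36 with that scaling, 143 with the replicate block and 53 to 81 without single libraries. The STAT share of opened peaks was 27.2% in the central 150 bases, 46.0% with glmTreat and 40.1 to 53.8% without single libraries. The GRE share of closed peaks was 17.9%, 42.3% and 0 to 33.4% in the same order. Of all tested peaks, 6.69% held the STAT pair and 7.30% the GRE pair in the central 150 bases. With promoters taken as 2000 bases on either side, the opened and closed shares were 8.86% and 10.5%, against 25.1% of all tested peaks. With overlap of at least 50% of the peak, IRF3 shares were 0.409% and 0.958%, against 2.00% of all. CTCF shares were then 0.817% and 4.15%, against 6.08%, so the closed share was below that of all tested peaks, unlike at 1 base. Within 50 kb, 26.9% of induced genes had an opened peak and 6.41% of repressed genes a closed one. Of genes called in neither direction, 5.95% had an opened and 0.966% a closed peak there. Of promoter peaks that did not pass, values without single libraries crossed 0 at Socs3 (-0.27 to 0.14), Agrp (-0.24 to 0.028), Npy (-0.50 to 0.011), Lepr (-0.64 to 0.17) and Fos (-0.23 to 0.10). The sign turned without fasted replicate 1 at Agrp (0.026), Lepr and Fos, without fasted replicate 2 at Socs3, and without leptin replicate 2 at Socs3 (0.021), Agrp, Npy and Lepr (0.070). The named peaks kept their direction and their side of the threshold in 607 values under the other alternatives and lost the call in 16, and without single libraries they kept both in 166 and lost the call in 88. Both tallies include the 7 promoter peaks, which were not called and had no call to lose. The 166 also include the fits without a fed library, which kept nearly all calls. The tally therefore does not give the share of named calls that held without a fasted or leptin library. With 2 libraries per state, leaving one out assumes that the lone library varies like the other states.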
